A study of Mus musculus with 30 samples.

Results

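Mammary carcinomas from Myc transgenic mice were divided by the level of Car6, the gene of carbonic anhydrase VI, and every other measured gene was compared across that division. Of 15 RNA extracts, 8 had a Car6 level above 3 on a log2 scale (548-A, 597-B, 579-E, 579-D, 546-B, 540-B, 579-F and 561-B, from the highest down) and 7 had a level below it (595-A, 567-B, 579-B, 546-A, 547-A, 579-A and 550-A). Each extract was hybridised on 2 arrays, once in each channel, against 1 reference RNA common to all 30 arrays. The animals share the transgene, and its promoter, the strain, the age of the mice, any treatment and the source of the reference RNA were not stated in the labels used here. Extract codes combine a number with a letter, both of unstated meaning; number 579 stands on 5 extracts and 546 on 2. The labels place most arrays in work on epithelial-mesenchymal transition, and both arrays of 550-A and 561-B with 1 array of 595-A in work on tumour progression.

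Nothing in the labels divides the extracts this way. The groups were made from the Car6 values themselves, so Car6 is described without a test, and p-values for other genes say whether a probe varied together with that division, not whether a treatment acted. Whether the extracts are of separate animals is unstated, so a p-value reflects the spread among these 15 extracts alone, which may be technical. Values are mean log2 ratios of extract to reference. The labels do not state which channel was divided by which, and the direction in which Myc is positive was taken as extract over reference. With the opposite direction every level would change sign, that of Car6 included. Which genes went together with Car6 or opposite to it would stay the same.

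Carbonic anhydrases are zinc enzymes that interconvert carbon dioxide and bicarbonate. Carbonic anhydrase VI is the secreted member of the family, known from saliva and milk, while most other members stay in the cell or on its membrane. Dio1 encodes type I iodothyronine deiodinase, a selenoprotein of liver, kidney and thyroid that removes iodine from thyroxine to give the active hormone. The starts of these 2 genes are shown because their levels went together in the carcinomas. The sequences are RefSeq's in build GRCm38.p6, 300 bases each on the minus strand, Car6 at chr4:150201086-150201385 and Dio1 at chr4:107307119-107307418, written from upstream to downstream with motif letters in capitals.
Car6: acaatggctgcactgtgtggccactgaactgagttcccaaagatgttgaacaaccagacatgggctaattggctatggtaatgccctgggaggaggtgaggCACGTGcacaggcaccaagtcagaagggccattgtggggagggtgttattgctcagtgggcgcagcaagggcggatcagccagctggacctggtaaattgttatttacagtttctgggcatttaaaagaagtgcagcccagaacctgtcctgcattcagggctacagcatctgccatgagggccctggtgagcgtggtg
Dio1: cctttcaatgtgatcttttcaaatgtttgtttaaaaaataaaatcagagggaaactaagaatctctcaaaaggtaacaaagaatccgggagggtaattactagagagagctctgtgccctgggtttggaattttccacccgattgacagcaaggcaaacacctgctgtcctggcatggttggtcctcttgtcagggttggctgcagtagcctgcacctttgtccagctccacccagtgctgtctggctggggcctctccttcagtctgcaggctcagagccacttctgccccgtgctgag
Letters were searched on both strands for 3 motifs, the Myc E-box CACGTG, the TATA box TATAAA and the cyclic AMP response element TGACGTCA. The Car6 window held 1 match, CACGTG from base 102 of the window, and the Dio1 window held none. Over all 32851 RefSeq promoter windows, 7.15% held CACGTG, 13.6% held TATAAA and 1.79% held TGACGTCA, so a match or its absence is a description of these letters and not of binding.

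In the upper group Car6 lay at 8.11 in 548-A, 7.47 in 597-B, 7.20 in 579-E, 6.90 in 579-D, 6.75 in 546-B, 6.31 in 540-B, 4.60 in 579-F and 4.11 in 561-B. In the lower group it lay at 0.21 in 546-A, -0.01 in 547-A, -0.24 in 550-A, 1.72 in 567-B, -0.10 in 579-A, 1.0 in 579-B and 1.75 in 595-A. Extract 561-B lay just inside the upper group and 595-A just outside it, with no extract between them. In the lower group 546-A, 547-A, 550-A and 579-A were close to the reference, while 579-B, 567-B and 595-A exceeded it on both arrays. The upper group exceeded it in every extract and on both arrays of each. Both numbers that occur on more than 1 extract stood on both sides: 546-B was high and 546-A low, and number 579 had 3 high extracts (579-D, 579-E, 579-F) and 2 low ones (579-A, 579-B).

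Dio1 divided the extracts in the same way. It lay at 4.95 in 540-B, 5.49 in 546-B, 7.27 in 548-A, 3.64 in 561-B, 6.98 in 579-D, 5.77 in 579-E, 4.20 in 579-F and 5.21 in 597-B. In the Car6-low extracts it lay at -0.19 in 546-A, -0.46 in 547-A, 0.13 in 550-A, 0.73 in 567-B, -0.25 in 579-A, -0.01 in 579-B and 0.45 in 595-A. The lowest Car6-high extract, 561-B, stood far above the highest Car6-low extract, 567-B. Dio1 differed by 5.38 ± 0.46 (SE, 8 against 7 extracts), a 41.7-fold difference, with an adjusted p of 3.37e-05 in limma. Dio1 was named as a marker of this division with earlier results of these data known, so its p is not independent evidence. The difference was 5.69 between 546-B and 546-A and 5.78 within number 579.

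**Figure D1:**
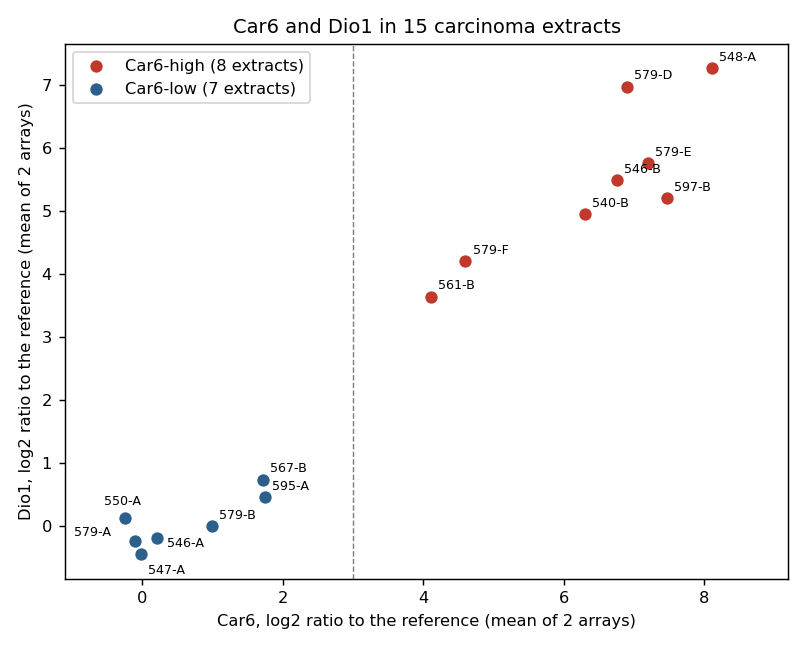
Log2 ratio to the reference of Car6 (x axis) and Dio1 (y axis) in each of 15 extracts, each point the mean of 2 arrays, red for Car6-high and blue for Car6-low, with the dashed line at the Car6 level of 3. The 8 Car6-high extracts lie between 3.64 and 7.27 for Dio1 and the 7 Car6-low extracts between -0.46 and 0.73.

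Within each group the levels of both genes are given as a description, with no test, because Car6 made the groups and Dio1 was named with these results known. Among the Car6-high extracts 548-A was highest and 561-B lowest for each gene. Pearson's r between Car6 and Dio1 was 0.849 and Spearman's rho 0.833 over these 8 extracts, and r was 0.598 over 6 without 561-B and 579-F, the 2 farthest from the median of Car6. Over the 7 Car6-low extracts r was 0.814 and rho 0.571, and r was 0.197 without 595-A and 567-B. Both genes were read on the same arrays, and the values of r rest in part on the extracts left out.

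Across all other probes few followed Car6 closely. Of 12887 tested probes, 3 passed an adjusted p of 0.05 in limma with Benjamini-Hochberg adjustment (0.0233%), all 3 higher in the Car6-high extracts: Dio1, Dhrs7 and a probe that the annotation used here does not name, number 14223. With array medians subtracted 6 passed, 3 higher and 3 lower, of which 2 were among the 3 above and Dhrs7 was not, and leaving out 1 extract gave from 1 call (Dio1) to 8 calls (without 540-B, 4 higher and 4 lower). At an unadjusted p under 0.05 there were 864 probes (6.70%), 575 higher (4.46%) and 289 lower (2.24%). The values of both groups stood wholly apart for 22 probes (0.171%), 17 higher (0.132%) and 5 lower (0.0388%). Read as 1 probe per gene, 355 of 9918 genes differed by more than 1 on the log2 scale, 224 higher and 131 lower, and the median difference over all genes was 0.04. A positive difference was held by 5394 of the 9918 genes, the share to set beside the counts of signs in the lists below.

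**Figure D2:**
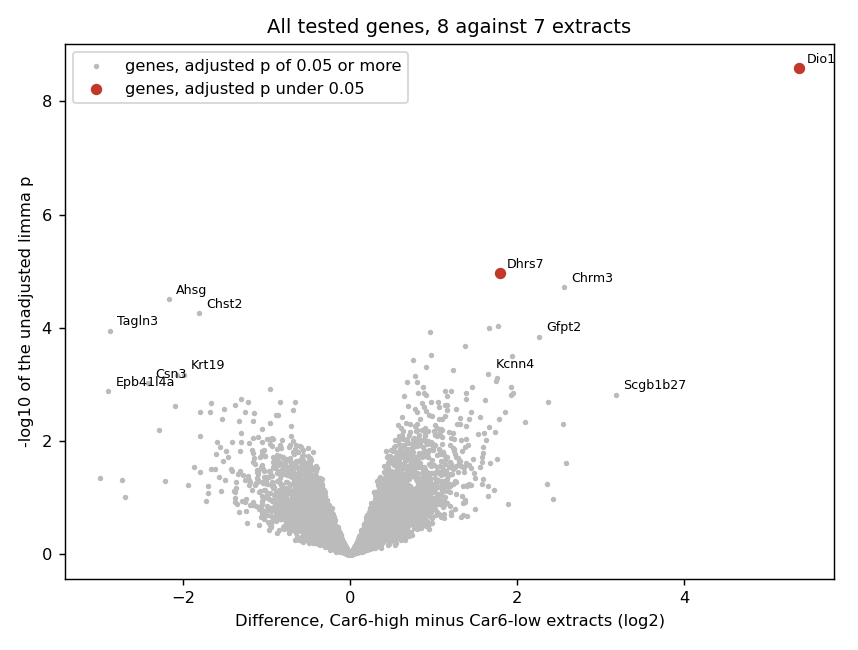
Difference between Car6-high and Car6-low extracts in log2 (x axis) against -log10 of the unadjusted limma p (y axis) for each tested gene, 8 against 7 extracts, with Car6 left out. Dio1 at 5.38 and Dhrs7 at 1.80 are the red points, which mark an adjusted p under 0.05; all other genes are grey.

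Dhrs7 encodes a short-chain dehydrogenase of the endoplasmic reticulum. It lay at 0.32 in 540-B, 0.74 in 546-B, 1.22 in 548-A, 0.60 in 561-B, 1.86 in 579-D, 1.48 in 579-E, 0.53 in 579-F and 1.68 in 597-B, against 0.10 in 546-A, -1.19 in 547-A, -0.83 in 550-A, -0.22 in 567-B, -1.40 in 579-A, -0.96 in 579-B and -0.68 in 595-A. The groups did not overlap, although the 2 arrays of 546-A disagreed, at 2.0 and -1.81. Dhrs7 was higher by 1.80 ± 0.29 (SE, 8 against 7 extracts; limma adjusted p = 0.0461), and the adjusted p rose to between 0.0582 and 0.162 in 13 of the 15 fits that leave out 1 extract, all but those without 540-B or 546-A. It was also 0.0642 with array medians subtracted and 0.563 on the arrays with the extract in channel 1 alone. The limma adjusted p of Dhrs7 was 0.880 without number 579 and 0.405 without 548-A, 579-D and 597-B. Without 550-A, 561-B and 595-A it was 0.180. The difference was 0.64 between the extracts numbered 546 and 2.47 within number 579.

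Probe 14223 lay at 1.70 in 540-B, 2.20 in 546-B, 3.14 in 548-A, 0.96 in 561-B, 5.55 in 579-D, 5.80 in 579-E, 2.95 in 579-F and 3.58 in 597-B. It lay at 0.68 in 546-A, where 1 array gave a value, -2.90 in 547-A, -0.72 in 550-A, -1.44 in 567-B, -2.07 in 579-A, -1.94 in 579-B and -1.33 in 595-A. The groups did not overlap, and 579-E and 579-D held the 2 highest values, with a difference of 6.78 within that number against 1.52 within 546. Over all extracts the difference was 4.63 ± 0.70 (SE, 8 against 7 extracts; limma adjusted p = 0.0343), and the call was lost in 11 of the 15 fits without 1 extract (adjusted p from 0.0533 to 0.132), all but those without 540-B, 546-A, 561-B or 579-E.

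The genes that follow did not pass the test. They are the 10 next on the higher side and the 12 first on the lower side by smallest p, and were thus chosen by the values given here.  Chrm3, a muscarinic acetylcholine receptor that drives secretion in glands, differed by 2.56 ± 0.43 (adjusted p = 0.0615), with 7 of 8 Car6-high extracts above every Car6-low one. Extract 579-E was the exception at 0.10, within the Car6-low range of -2.18 to 0.21. Without it the limma adjusted p of Chrm3 was 0.0202, but it lay between 0.0647 and 0.187 in every other fit that leaves out 1 extract. Many of its values fell on ratios of small whole numbers: 9 of 15 values in the Car6-high and 8 of 10 in the Car6-low arrays equalled, to 3 decimals, the log2 ratio of 2 whole numbers of at most 20, compared with 20.6% and 23.3% of all values in these groups. Spot intensities were not used here. Chst5, a carbohydrate sulfotransferase that differed by 1.38 ± 0.29, had 10 of 16 and 7 of 11 such values.

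Spcs3, a subunit of signal peptidase, ran from -0.36 to 0.82 in the Car6-high extracts and from -1.25 to -0.57 in the Car6-low ones, with no overlap (difference 0.96 ± 0.19, limma adjusted p = 0.117). Gfpt2, which starts the hexosamine pathway that feeds glycosylation, differed by 2.26 ± 0.46 (limma adjusted p = 0.131), and its highest Car6-low extract, 546-A at 1.70, lay above the Car6-high extracts 561-B at 1.09 and 579-F at 1.37. Gyg, which primes glycogen, differed by 0.91 ± 0.21, with 546-A again the highest Car6-low extract at 1.5. Between the 2 extracts numbered 546 Gyg went the other way, at -0.17, against 1.33 within number 579.

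Nnmt, which methylates nicotinamide, ran from -0.82 to 1.58 in the Car6-high and from -2.32 to -1.06 in the Car6-low extracts (difference 1.66 ± 0.33, limma adjusted p = 0.117). The top value, in 548-A, rested on 1 array. The groups did not overlap, and the difference was close within both numbers, at 1.71 for 546 and 1.52 for 579. Azin1, an inhibitor of antizyme that raises polyamine synthesis, differed by 1.77 ± 0.34 on its probe with values on all 30 arrays, while its second probe, with values on 29, differed by -0.05. Bcat2, the mitochondrial aminotransferase of branched-chain amino acids, differed by 0.96 ± 0.21, and Pecr, a peroxisomal enoyl-CoA reductase, by 0.76 ± 0.17. Etv1, an ETS transcription factor, differed by 1.94 ± 0.43, with 5 of 8 Car6-high extracts above every Car6-low one.

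**Figure D3:**
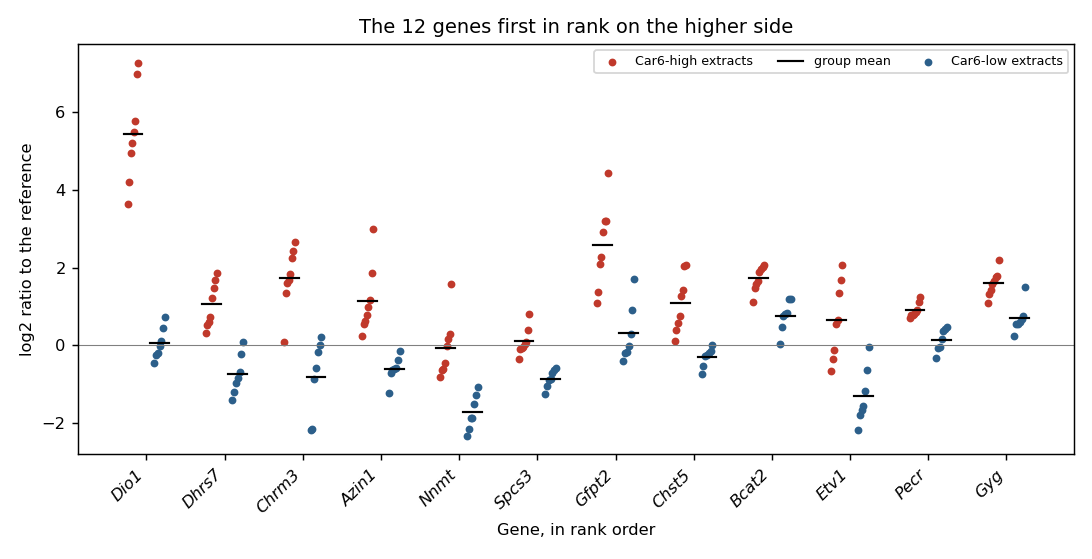
Log2 ratio to the reference (y axis) of the 12 genes first in rank by p on the higher side (x axis), 1 point per extract, red for the 8 Car6-high and blue for the 7 Car6-low extracts, with a black line at each group mean. Dio1 has the widest gap, from 0.73 to 3.64, and the points of Dhrs7, Azin1, Nnmt, Spcs3, Chst5 and Pecr also do not overlap.

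On the lower side no probe passed the test. Chst2, a sulfotransferase that acts on N-acetylglucosamine, lay between -0.95 and 0.99 in the Car6-high extracts and between 1.17 and 2.47 in the Car6-low ones, without overlap (difference -1.81 ± 0.33, limma adjusted p = 0.102). It stood opposite to Chst5, which belongs to the same enzyme family. Krt19, a keratin of simple and ductal epithelium, was even among the Car6-low extracts, at 1.54 to 2.59, and spread from -1.77 to 1.75 among the Car6-high ones (difference -1.99 ± 0.48, limma adjusted p = 0.336). Extracts 579-D, 548-A and 597-B were the lowest for Krt19.

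Ahsg, the gene of the plasma protein fetuin-A, differed by -2.17 ± 0.38 (limma adjusted p = 0.0725), and Tagln3, a member of the transgelin family known from neurons, by -2.88 ± 0.57 (limma adjusted p = 0.117). The unnamed probe 17793 differed by -3.54 ± 0.63 (limma adjusted p = 0.0725). These 3 probes gave similar profiles. With group means removed, their values correlated over 29 or 30 arrays. The r was 0.888 for Tagln3 with 17793, 0.743 for Ahsg with 17793 and 0.719 for Ahsg with Tagln3. Other pairs of the genes named here reached values like those of Ahsg, among them Chst2 with Bace1 (0.787) and Azin1 with Gfpt2 (0.72). Whether Ahsg, Tagln3 and 17793 read separate transcripts was not tested. Extract 540-B was the highest of the Car6-high extracts for each of Ahsg (-0.64), Tagln3 (-0.68) and probe 17793 (-0.86), and without it the limma adjusted p was 0.0140 for Ahsg, 0.0253 for Tagln3 and 0.0437 for Chst2. Ahsg, Tagln3 and Chst2 did not pass in any other fit that leaves out 1 extract.

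Car2, the cytosolic carbonic anhydrase II, went opposite to Car6: it lay between 1.58 and 2.99 in the Car6-low extracts, and 7 of 8 Car6-high extracts lay below that range, with 561-B the exception at 2.55 (difference -1.30 ± 0.35, limma adjusted p = 0.438). Csn3, the kappa-casein gene, was high throughout, at 2.48 to 7.16 in the Car6-high and 5.49 to 8.72 in the Car6-low extracts, a difference of -2.42 ± 0.60. Basp1, Bcl9, Epb41l4a, Ifngr1, Bace1 and Septin2 made up the 12, with differences between -2.90 for Epb41l4a and -0.66 for Septin2 and limma adjusted p from 0.336 to 0.438. Ifngr1, a chain of the interferon-gamma receptor, and Bcl9, a coactivator of beta-catenin, each had 7 of 8 Car6-high extracts below every Car6-low one. A second Bcl9 probe, also with values on all 30 arrays, differed by -0.58.

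**Figure D4:**
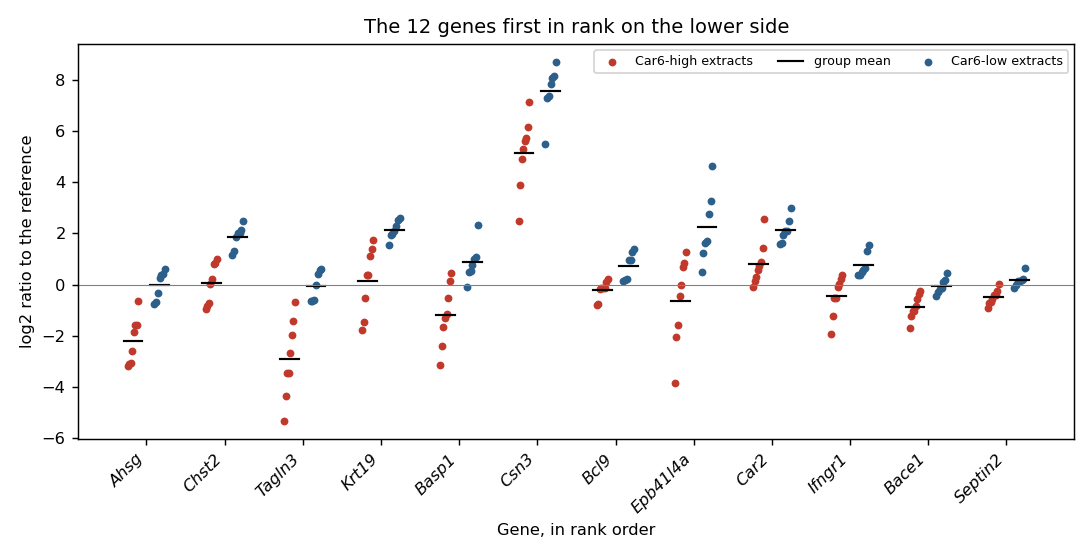
Log2 ratio to the reference (y axis) of the 12 genes first in rank by p on the lower side (x axis), 1 point per extract, red for the 8 Car6-high and blue for the 7 Car6-low extracts, with a black line at each group mean. The points of Chst2 and Tagln3 do not overlap between the groups, and Csn3 spans 2.48 to 8.72.

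At the level of genes, 16 of 9918 (0.161%) had groups that stood wholly apart. Besides the higher genes named above these were Kcnn4, a calcium-activated potassium channel of secretory epithelia (1.66 ± 0.39), Sult1c1, a cytosolic sulfotransferase (1.24 ± 0.29), Zfp687, a zinc finger protein (1.05 ± 0.29), Tram1, which helps proteins into the endoplasmic reticulum (0.80 ± 0.20), Mlx, a partner in the Max-like network (0.68 ± 0.17), and Kif1b, a kinesin motor (0.65 ± 0.17). On the higher side there were 13 such genes (0.131%) and on the lower side 3 (0.0302%). The lower ones were Tagln3, Chst2 and G3bp2, a stress granule protein at -0.57 ± 0.21. Their limma adjusted p lay at 0.311 or above for Kcnn4, Sult1c1, Zfp687, Tram1, Mlx, Kif1b and G3bp2. The unnamed probes 14223, 17793 and 21823 also stood wholly apart and are not counted among these genes. Probe 21823 was higher by 1.35 ± 0.26 (limma adjusted p = 0.117).

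As a description over all 15 extracts, the genes whose profile was most like that of Car6 by Pearson's r were Dio1 (0.980), Dhrs7 (0.907), Nnmt (0.895), Spcs3 (0.867), Gfpt2 (0.859), Ube4a (0.844), Etv1 (0.843), Pecr (0.841), Mlx (0.839) and Tmed3 (0.837). The most opposite were Chst2 (-0.904), Cited2 (-0.869), Tagln3 (-0.826), Ifngr1 (-0.819) and Krt19 (-0.814). These values share the division between groups and the same arrays. Inside the groups the likeness varied: Ube4a, a ubiquitin ligase, correlated with Car6 at 0.681 in the Car6-high and 0.974 in the Car6-low extracts, whereas Spcs3 gave 0.537 and -0.15.

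No other member of the gene lists of either marker passed the adjusted test. Of the 10 other carbonic anhydrase genes measured, 1 had an unadjusted p under 0.05 (Car2, lower), against 2.48% of all genes that were lower, 4.58% that were higher and 7.06% in either direction. Car7, a cytosolic member, had a difference of 1.27 ± 0.70, which turned on 546-A at -3.78 from 1 array. Of 7 other genes of thyroid hormone handling, 2 were higher and 1 lower at an unadjusted p under 0.05, a share of 42.9% against 7.06% of all genes. The higher ones were Thra, a thyroid hormone receptor (0.77 ± 0.30, limma adjusted p = 0.644), and Dio2, the second deiodinase, which also activates thyroxine (0.52 ± 0.23, limma adjusted p = 0.702). Among 13 selenoprotein genes without Dio1, 1 was higher and 2 were lower at an unadjusted p under 0.05 (23.1%), the lower ones being Gpx4, which reduces lipid peroxides (-0.48 ± 0.20), and Txnrd1, a thioredoxin reductase (-0.67 ± 0.30).

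The list of secreted products of salivary, lacrimal and mucous glands, where Car6 is best known, gave a mixed picture. It also holds Kcnn4, a membrane channel, which was among its higher genes and is counted again with the channels below. Of 24 measured genes 4 were higher and 1 lower at an unadjusted p under 0.05, a share of 20.8% against 7.06% of all genes (4.58% higher and 2.48% lower), and none passed the adjusted test; their median difference was 0.10. Scgb1b27, a secretoglobin (a small secreted protein of glands), lay between 0.60 and 6.80 in the Car6-high and between -0.55 and 2.12 in the Car6-low extracts (difference 3.19 ± 0.83, limma adjusted p = 0.423). It did not follow Car6 within number 546, where 546-B was below 546-A by 1.52 on the log2 scale (difference -1.52). Among 15 channels and bicarbonate transporters 2 were higher (13.3%, against 4.58% of all genes), Kcnn4 and Atp1b1, the beta subunit of the sodium pump (1.86 ± 0.53, limma adjusted p = 0.485), with a list median of 0.33.

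Of 30 genes of the unfolded protein response and the secretory pathway, 6 were higher and 4 lower at an unadjusted p under 0.05 (33.3%), with a median of 0.12; of all genes 4.58% were higher and 2.48% lower. Xbp1, a transcription factor that expands the secretory apparatus, ran from 1.28 to 2.86 against 0.93 to 1.63 (difference 0.87 ± 0.24, limma adjusted p = 0.450). Sec11c, the catalytic subunit of signal peptidase beside Spcs3, differed by 1.16 ± 0.31 (limma adjusted p = 0.426). Of 23 genes of fatty acid and cholesterol synthesis 5 were higher and 2 lower (30.4%, against 7.06% of all genes), with Fdft1, squalene synthase, at 0.87 ± 0.22 and Mvk, mevalonate kinase, at 0.90 ± 0.30. None of these passed the adjusted test. In both lists the 2 genes described were those of smallest p, each of them higher, and the lower members were not named.

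Most milk genes had a negative difference, but no member passed the test. Of 14 measured, 13 had a negative difference and 4 of these an unadjusted p under 0.05 (28.6%, against 2.48% of all genes that were lower), with a median of -0.60 against 0.04 over all genes. Csn2, the beta-casein gene, lay at 4.31 in 540-B, 7.85 in 546-B, 1.76 in 548-A, 6.46 in 561-B, 0.60 in 579-D, 0.60 in 579-E, 5.50 in 579-F and 3.10 in 597-B. In the Car6-low extracts it lay at 5.58 in 546-A, 9.29 in 547-A, -0.04 in 550-A, 8.61 in 567-B, 8.36 in 579-A, 7.60 in 579-B and 8.0 in 595-A. All Car6-low extracts but 550-A thus held high Csn2, and 550-A was level with the reference, and the groups overlapped (difference -3.00 ± 1.38, limma adjusted p = 0.732). Mfge8, a milk fat globule protein, differed by -1.15 ± 0.45.

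The epithelial genes Epcam, Cdh1 and Krt8 and the mesenchymal gene Vim overlapped between the groups. Ratios to a reference of unstated source do not settle cell identity. Epcam, an epithelial adhesion molecule, lay between 2.17 and 3.44 in all 15 extracts (difference -0.22 ± 0.21), and Vim, the intermediate filament of mesenchymal cells, between -4.50 and -1.35 (-0.53 ± 0.43). Cdh1, the epithelial cadherin, differed by -0.31 ± 0.69, with both signs over the alternatives, and Krt8, a luminal keratin, by -0.69 ± 0.26 (limma adjusted p = 0.638). Of 30 genes of epithelial adhesion and keratins 3 were lower at an unadjusted p under 0.05 (10%, against 2.48% of all genes), among them Cldn4, a tight junction protein (-1.31 ± 0.48). Krt23, an epithelial keratin, was the opposite case, with 7 of 8 Car6-high extracts above every Car6-low one (1.92 ± 0.48, limma adjusted p = 0.411). Of 11 basal and myoepithelial genes 10 had a negative difference, with a median of -0.58. At an unadjusted p under 0.05, 1 was higher and 2 were lower (27.3%, against 7.06% of all genes). The higher one was Trp63, the basal transcription factor p63, at 1.32 ± 0.52, with 8 of 16 and 8 of 14 values on small whole-number ratios. Krt5, a basal keratin, differed by -0.72 ± 0.55.

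Genes of stroma and of macrophages and other myeloid cells had mostly negative differences, none past the test. Their part in the differences above was not tested. Of all 9918 genes 5394 had a positive difference. Of 21 collagen chains, 20 had a negative difference (median -0.53) and 2 were lower at an unadjusted p under 0.05 (9.52%, against 2.48% of all genes). Of 25 fibroblast and matrix genes, 22 were negative (median -0.37) and 0 had an unadjusted p under 0.05. Their mean level ran from -2.33 to 0.59 in the Car6-high and from -1.72 to 1.02 in the Car6-low extracts. The median extract went the other way, at -0.762 in the Car6-high and -0.995 in the Car6-low group. For the collagen chains it lay at -0.195 against 0.395, and for the macrophage and myeloid genes at 0.310 against 0.853. Col1a1, the main fibrillar collagen chain, differed by -0.52 ± 0.72 and Fn1, fibronectin, by -0.23 ± 0.38, and both turned sign without 546-A and 548-A. A second Fn1 probe, like the first with values on all 30 arrays, differed by -0.73. Of 22 macrophage and myeloid genes 19 were negative (median -0.38) and 5 were lower at an unadjusted p under 0.05 (22.7%, against the same 2.48%). Among the 5 were S100a8, a calprotectin subunit (-1.67 ± 0.48, limma adjusted p = 0.485), and Cd14, an endotoxin co-receptor (-1.0 ± 0.34). Cd14 is also on the list of luminal progenitor genes used here, so it does not single out myeloid cells. The mean level of the 22 genes ran from -0.26 to 1.2 against 0.51 to 1.39.

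Among the other markers, the mean level ran from 0.20 to 1.52 against 0.71 to 1.26 for 9 endothelial genes, from -0.97 to 0.23 against -0.59 to 0.47 for 12 lymphocyte genes, from -0.65 to 1.01 against 0.03 to 0.82 for 15 adipocyte genes and from -0.66 to 1.29 against -1.04 to 1.62 for 13 skeletal muscle genes. For 2 erythroid genes the mean level ran from 0.10 to 2.49 against 0.26 to 2.29. All of these ranges overlapped. Ptprc, the leukocyte antigen CD45, differed by -0.06 ± 0.32, Pecam1, of endothelium, by 0.03 ± 0.46, H2-Aa, an MHC class II chain, by 0.53 ± 0.66 and Acta1, of skeletal muscle, by 0.53 ± 1.26. The signs of Ptprc, Pecam1 and Acta1 depended on which extracts or arrays were used. A ratio to a reference gives no absolute level, and in bulk tumour RNA fewer cells of a type and less RNA per cell cannot be told apart.

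The acute phase genes gave 3 lower members of 21 at an unadjusted p under 0.05 (14.3%, against 2.48% of all genes). Cp, ceruloplasmin, lay between -3.54 and 0.98 in the Car6-high and between 0.29 and 1.74 in the Car6-low extracts (-2.09 ± 0.58, limma adjusted p = 0.459), and Saa2, a serum amyloid A gene, differed by -2.29 ± 0.73. Saa1, its neighbour in the family, spread over both groups, from -1.71 to 7.62 and from -1.24 to 7.80 (-2.70 ± 1.53), and near-identical family members may share signal on an array. Ltf, lactoferrin, differed by -0.58 ± 1.05 and Tgtp1, an interferon-induced GTPase, by -0.66 ± 1.08, with both signs over the alternatives. Krt6b, a keratin of wounded epithelium, differed by -2.73 ± 1.28, largely through 546-A at 9.4 and 550-A at 5.96. No member of the interferon list, of 25 measured, had an unadjusted p under 0.05.

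The Myc probe overlapped between the groups. Myc lay between 2.85 and 3.68 in the Car6-high and between 2.38 and 3.60 in the Car6-low extracts (difference 0.19 ± 0.21, limma adjusted p = 0.893), and whether the probe reads the transgene, the mouse gene or both is not given. Of 41 Myc target and nucleolar genes 2 were higher at an unadjusted p under 0.05 (4.88%, against 4.58% of all genes), with a median of 0.03. Of 41 cell cycle genes 2 were higher (4.88%), among them Foxm1, a mitotic transcription factor (0.81 ± 0.31), and Mki67, a proliferation marker, differed by 0.19 ± 0.21. Of 63 cytosolic ribosomal protein genes 57 had a positive difference, against 5394 of all 9918 genes. Of the 63, 4 (6.35%) had an unadjusted p under 0.05, close to the 7.06% of all genes, and the list's median was 0.21. Oxidative phosphorylation gave 61 positive of 76, 5 with an unadjusted p under 0.05 (6.58%), and a median of 0.12.

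Fgfr2, a fibroblast growth factor receptor, was far above the reference in 3 extracts, all Car6-high: 548-A at 7.13, 579-D at 5.93 and 597-B at 6.99. The other Car6-high extracts lay at -1.54 in 540-B, -0.40 in 546-B, -1.80 in 561-B, -0.16 in 579-E and -0.80 in 579-F, inside the range of the Car6-low extracts, -2.62 to 0.90. The group difference was 2.43 ± 1.42 (limma adjusted p = 0.808) and turned to -0.43 without those 3 extracts, so high Car6 occurred with and without high Fgfr2. Without the same extracts Dio1 still differed by 4.75 (limma adjusted p = 7.41e-05), while Dhrs7 differed by 1.48 and no longer passed (limma adjusted p = 0.405). Of 15 genes of MAPK output 3 were higher at an unadjusted p under 0.05 (20%, against 4.58% of all genes), among them Etv1 and Spry1, an inhibitor of receptor signalling (1.37 ± 0.57). For Spry1, 6 of 15 Car6-high and 8 of 12 Car6-low values were on small whole-number ratios. Its top value, 4.09 in 579-F, rested on 1 array. Of 9 genes of FGF ligands and receptors none had an unadjusted p under 0.05.

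**Figure D5:**
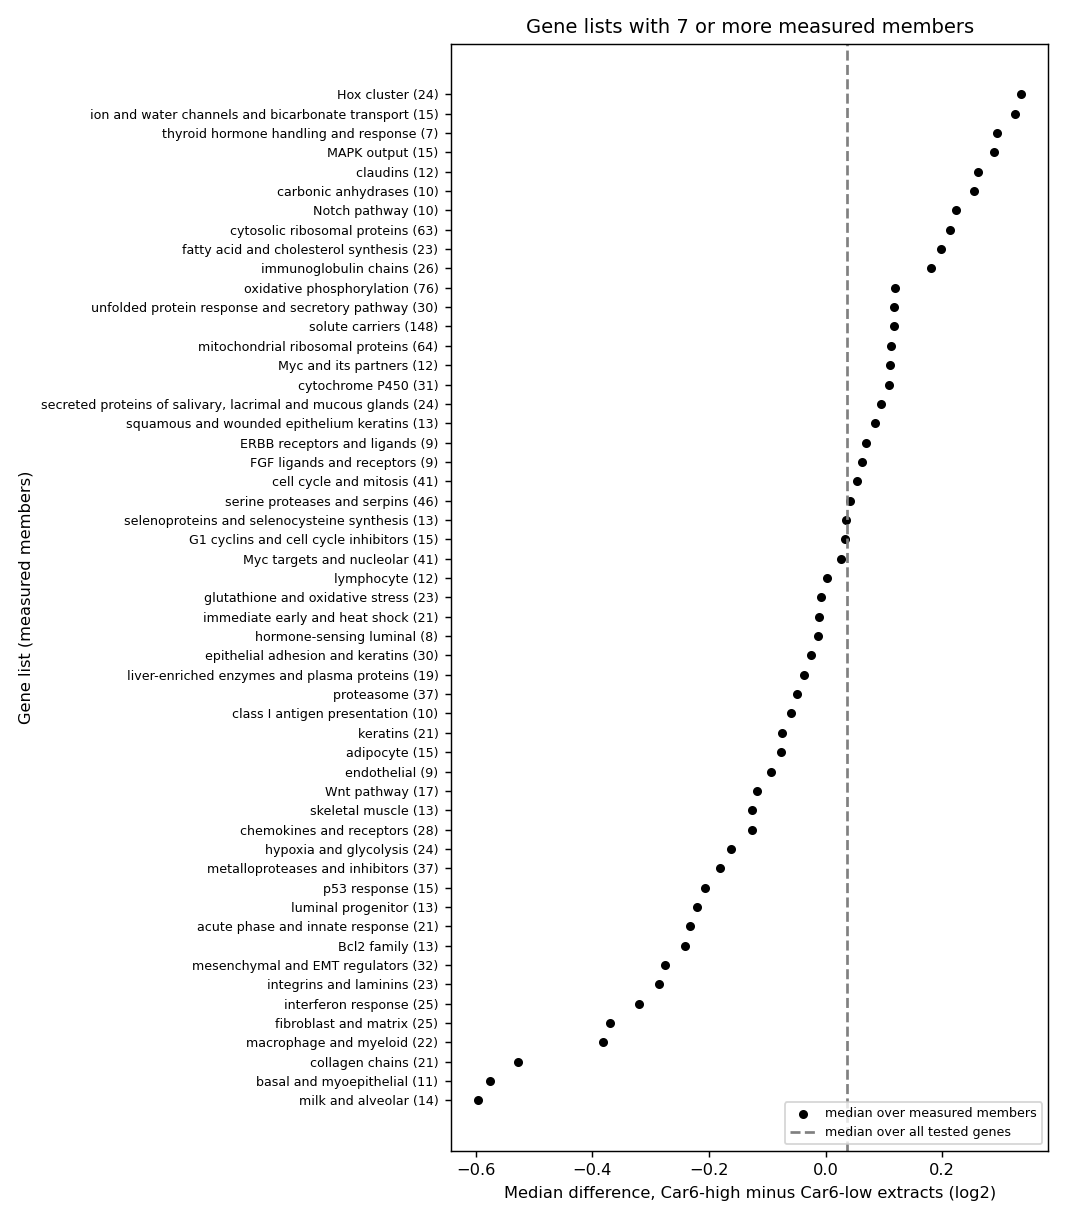
Median difference between Car6-high and Car6-low extracts in log2 (x axis) over the measured members of each gene list (y axis, number of measured members in brackets), for lists with 7 or more, with Car6 and Dio1 left out and a dashed line at the median over all tested genes, 0.04. Medians run from -0.60 for milk genes to 0.34 for the Hox cluster, and no member of any list passed the adjusted test.

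Whether the differences depended on the extract number was asked with an interaction term for number 579 against the other numbers. No probe passed the adjusted test in limma, and 457 of 12887 (3.55%) had an unadjusted p under 0.05. For Dio1 the difference within 579 exceeded that in the other numbers by 0.60 ± 1.05 (adjusted p = 0.998) and for Dhrs7 by 0.99 ± 0.60 (adjusted p = 0.998). With the number as a fixed block, which leaves the contrasts within 546 and 579, Dio1 differed by 5.75 and its limma adjusted p was 0.269. Within number 579 alone, 3 against 2 extracts, it differed by 5.78 with a limma adjusted p of 0.645, the size of the difference being as large as over all extracts.

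Measured values per array ran from 13434 to 21991 in the Car6-high and from 14643 to 21229 in the Car6-low extracts, and extract medians from -0.25 to 0.44 and from -0.17 to 0.32. Extracts 546-A and 548-A were the thinnest, with 4021 and 3000 tested probes read on 1 array, and leaving out both kept 3 calls.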

How the data were processed

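Each of 15 extracts was measured on 2 two-channel arrays. The deposited table gives log2 ratios; background correction, normalization and software were not given in the sources used here, and the scale was read from the values. Such unstated steps could shift levels between arrays, and the number of arrays limits precision. The placeholder 16.61 (8839 cells) and 95268 blanks were set missing, arrays with the extract in channel 2 were turned, and both arrays averaged. Probes valued on at least 24 of 30 arrays, with no extract lacking both of its arrays, were tested (12887 of 22800, Car6 left out) with limma 3.58.1 (lmFit, eBayes, two-sided) in R 4.3.3 and Benjamini-Hochberg adjustment at 0.05; the fit was tested on simulated data. An SE is that of the fitted difference.

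A gene was read from its probe with values on most arrays, with ties going to the lowest probe number. Of 17008 annotated probes, 16874 had 1 symbol and 134 several, which were not named; 16196 were found by gene identifier in the RefSeq table of GRCm38.p6. Named were the genes past the threshold, filled to 12 a direction by smallest p, a set of fixed genes and members of 55 lists with the smallest p. Unnamed probes were described where they passed the threshold or stood wholly apart between the groups. The groups, lists and fixed genes were chosen with earlier results of these data known. Genes found wholly apart between groups were named after their values were seen. Lists are described by counts and medians, with no set test. Alternatives covered centring, single channels, a dye term, missing-value filters, extract number, subsets of extracts, each extract left out, and Car6 as a continuous covariate.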

Additional observations from a re-analysis of the deposited data

Results flagged for a closer look

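Of 276 sets of 7 or 8 extracts, 1 set for each named gene and group, 23 held an extract whose gap to the others exceeded Dixon's critical value, where chance gives about 1 in 20. In 548-A (Car6-high) this was Nnmt at 1.58 (1 array) and Gpx4 at -0.52. In 546-A (Car6-low) this was Gyg at 1.5, Tgtp1 at 7.67 (1 array), Car7 at -3.78 (1 array), Kcnn4 at -0.44, Cldn5 at 2.52 (1 array), Cd8b1 at 1.53, Tap1 at 2.43, Tnni2 at -7.42 (1 array), Fgf10 at -5.36 (1 array) and Mrpl19 at -3.91 (1 array). In 550-A (Car6-low) this was Csn2 at -0.0395, H2-Aa at 5.22, Gpx4 at -0.039 and Gadd45a at -0.17. In 579-B (Car6-low) this was Sprr3 at -0.98 (1 array). In 597-B (Car6-high) this was Cd8b1 at -1.38. In 579-D (Car6-high) this was Irf7 at 2.09 and Fzd1 at -1.30. In 579-F (Car6-high) this was Spry1 at 4.09 (1 array). In 561-B (Car6-high) this was Fgf10 at -2.95. In 567-B (Car6-low) this was Klk1b16 at 1.03. Extract 546-A, 1 of the 2 with fewest values, gave the most of these. The causes were not tested.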

How the results depend on the processing

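The 15 extracts, single probes for Car6, Dio1 and Dhrs7, unknown animals and groups made from measured values limit these results. Dio1 kept its direction and its call in every alternative except the number as a fixed block and number 579 alone. The 3 calls (3 higher, 0 lower) became 6 (3 lower; 2 of the 3 calls kept, Dhrs7 lost) with array medians subtracted, 5 (1 lower) with the extract in channel 2 only, and 34 (24 higher, 10 lower) on single arrays with a dye term. The single-array fit took the extract as a random block, with 1 correlation of 0.122 for all probes. The 2 arrays of an extract thus counted nearly as separate samples, and its 34 calls are not added evidence. Probes on all 30 arrays gave 8 (5 higher, 3 lower) and Car6 as a continuous covariate 9 (6 higher, 3 lower). There was 1 call, higher, over 22349 probes with 4 extracts in each group, without number 579, without 548-A, 579-D and 597-B, and without 550-A, 561-B and 595-A. There were 0 calls with the number as a fixed block or in number 579 alone; unadjusted p was under 0.05 for 1042 and 834 probes. With 1 extract left out there were 1 to 8 calls (1 to 4 higher, 0 to 4 lower), the 8 without 540-B. The call was Dio1 alone without 546-B, 547-A, 548-A, 550-A, 567-B, 579-A, 579-B, 579-D, 579-F, 595-A or 597-B. The cause was not tested.

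With 1 extract left out the difference ranged as follows: Cdh1 -0.68 to 0.14, Ptprc -0.27 to 0.0795, Pecam1 -0.29 to 0.23, Acta1 -0.047 to 1.58, Tgtp1 -1.05 to 0.38 and Ltf -1.14 to 0.16.

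Other differences that turned sign were of genes far from the threshold. In number 579 alone Myc gave -0.082, Cdh1 0.28, Mki67 -0.24, Tgtp1 0.37 and Ltf 0.90. Without 546-A and 548-A, Fn1 gave 0.0325, Ptprc 0.0277, Col1a1 0.0059, Tgtp1 0.24 and Ltf 0.14. Without 548-A, 579-D and 597-B, Fgfr2 gave -0.43, Ptprc 0.12, Col1a1 0.27 and Ltf 0.83. Without number 579, Ptprc gave 0.28, Pecam1 -0.0178 and Acta1 -0.0881. Without 550-A, 561-B and 595-A, Pecam1 gave -0.19 and Acta1 -0.15. With the number as a fixed block Pecam1 gave -0.21 and Ltf 0.41. In channel 2 only Cdh1 gave 0.23 and Pecam1 -0.82; Pecam1 gave -0.0706 with a dye term and -0.22 with Car6 as a continuous covariate. Of 1295 values for 46 named genes and probes under alternatives, 1176 kept direction and side of the threshold. Most of the 46 did not pass over all extracts, so keeping their side mostly meant still not passing. A call was lost in 40 values, all of them from the 3 that passed over all extracts. The count of 1176 therefore does not show how stable those 3 calls were.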
